A study of Mus musculus with 10 samples.

Results

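The mitochondrial ribosomal protein genes were taken as the genes whose symbol is Mrpl or Mrps followed by a number and at most 1 letter, with a mean of at least 0.5 CPM (the share of a library's gene reads that fell on the gene, times 1000000). Of 24421 symbols, 77 matched, and 76 of these passed the filter, which left 15081 genes in all. By symbol, the 76 were 47 large subunit genes (Mrpl) and 29 small subunit genes (Mrps). Large and small stand for the symbol throughout: Mrps30 and Mrps18a are known to encode proteins of the large subunit, and Mrps36 a protein outside the ribosome. Mrpl23 was the member left out, at between 0.151 and 0.922 CPM.

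RNA of the ventral hippocampus (vHpc) came from female C57BL/6 mice that were all ovariectomized (OVX), recovered for 2 weeks and then drank vehicle or 17β-estradiol (E2) for 6 weeks. The E2 solution was 300 nM (about 0.7 µg a day), and both solutions held 0.1% ethanol. WT mice carried 2 normal copies of Bdnf and Het-Met mice carried 1 knock-in copy with the Val66Met change of brain-derived neurotrophic factor. The knock-in is carried in the germline and is not limited to a cell type. Each of the 10 libraries pooled RNA of 2 animals: 2 were vehicle-treated OVX WT (replicates 1 and 3), 2 E2-treated OVX WT (replicates 1 and 2), 3 vehicle-treated OVX Het-Met and 3 E2-treated OVX Het-Met. The study used 3 per group, and the other WT libraries were not analysed here. The libraries held 19820184 to 23267410 gene reads each.

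Mitochondria keep a small genome that encodes core subunits of the respiratory chain, and they translate it on ribosomes of their own. The large subunit joins amino acids, and the small subunit holds the messenger and reads its codons. The RNA of both subunits is made inside the organelle, whereas their proteins are encoded in the nucleus, translated in the cytosol and imported. Neurons depend on respiration for the energy that synaptic transmission uses.

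A library stood apart. Vehicle-treated Het-Met replicate 1 held the highest value of 54 of the 76 genes, and the other 9 libraries held the highest value of between 0 and 9. It also had the most negative slope of expression on gene length, and the highest choroid plexus marker sum (4076 CPM). Markers of the sampled tissue were present in all libraries: the neuron list summed to between 11121 and 12212 CPM and the hippocampus list to between 1014 and 1179 CPM. The lowest neuron sum was that of vehicle-treated Het-Met replicate 1, and its hippocampus sum (1041 CPM) was the lowest but that of E2-treated Het-Met replicate 3, which also had the next lowest neuron sum (11232 CPM). Bdnf itself had a log2 fold change of -0.29 (SE 0.11) in Het-Met against WT mice under vehicle and -0.19 (SE 0.11) under E2 (limma adjusted p = 0.418 and 0.511). Gene counts do not show the Val66Met change, so they do not check the genotype.

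The members were expressed at moderate and uneven levels. Per kilobase of exon, their median level was 10.5 CPM, with 12.2 for large and 7.98 for small subunit genes. Mrpl41, a large subunit protein, had the highest level at 61.4 CPM per kilobase. Mrps12, a protein of the decoding region of the small subunit, was the highest small subunit gene at 32.2. Mrps36 was the lowest at 0.586; its product is now known as a subunit of the 2-oxoglutarate dehydrogenase complex and not of the ribosome. The within-group SD of log2(CPM + 0.5) was 0.12 at the median, as it was over all genes tested, and ranged from 0.06 (Mrpl28) to 0.23 (Mrps36).

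Sequences just upstream of the start are shown because the factors NRF1, the ETS family member GABP and YY1 are known for binding promoters of nuclear genes for mitochondrial proteins. RefSeq windows (GRCm38.p6) of 250 bases before and 50 bases after the start were held for 67 of the 76 genes and were searched on both strands. The NRF1 pattern, GCGCA and GCGC spaced by any 1 base, was in 13 of the 67 (19.4%), against 9.48% of windows of genes tested and 4.78% of all windows. The ETS letters CCGGAAG were in 24 (35.8%), against 16.0% and 9.12%. The YY1 pattern, a longer consensus around ATGGCG, was in 7 (10.4%), against 3.16% and 1.61%. The estrogen response element, AGGTCA and TGACCT spaced by any 3 bases, was in 0 members, in 0 of 11390 tested genes and in 4 of 27025 windows. The letters TATAAA were in 4 members (5.97%), against 7.16% and 14.2%. No searched motif contains another. A match is a description of the letters, and expression did not enter the search. Below are 120 bases that end at the base before the start, with matches in capitals. Mrpl45 was chosen for its pair of NRF1 matches, Mrpl52 (lower strand match) and Mrps22 for ETS, and Mrpl41 and Mrps14 as members among the smallest p under vehicle whose stretch has no match.

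Mrpl45 (chr11:97315596-97315715, plus strand): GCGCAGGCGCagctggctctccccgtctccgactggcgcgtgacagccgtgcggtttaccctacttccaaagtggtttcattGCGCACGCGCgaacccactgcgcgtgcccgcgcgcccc
Mrpl52 (chr14:54426789-54426908, plus strand): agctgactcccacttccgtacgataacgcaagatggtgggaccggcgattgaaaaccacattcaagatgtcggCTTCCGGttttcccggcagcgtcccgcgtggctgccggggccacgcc
Mrps22 (chr9:98601680-98601799, minus strand): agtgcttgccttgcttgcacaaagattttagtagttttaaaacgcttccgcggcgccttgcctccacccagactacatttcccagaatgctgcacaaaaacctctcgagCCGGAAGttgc
Mrpl41 (chr2:24975099-24975218, minus strand): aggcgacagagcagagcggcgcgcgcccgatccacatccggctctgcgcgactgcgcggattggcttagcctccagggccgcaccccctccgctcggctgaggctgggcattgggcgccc
Mrps14 (chr1:160195095-160195214, plus strand): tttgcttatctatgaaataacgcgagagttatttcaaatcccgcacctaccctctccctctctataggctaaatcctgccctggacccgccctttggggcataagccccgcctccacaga

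Both subunits had higher sums in Het-Met mice. Summed CPM of the large subunit genes was 1215 and 1193 in vehicle-treated WT, 1208 and 1212 in E2-treated WT, 1481, 1285 and 1272 in vehicle-treated Het-Met and 1286, 1338 and 1320 in E2-treated Het-Met libraries. Every Het-Met library lay above every WT library. The small subunit sum was 650 and 631, 621 and 640, 784, 679 and 675, and 670, 710 and 693 CPM in the same order, and again the genotypes did not overlap. The group mean of the large subunit sum was 11.8% higher in Het-Met than in WT mice under vehicle and 8.63% higher under E2, and that of the small subunit sum 11.3% and 9.56% higher. The differences under vehicle without vehicle-treated Het-Met replicate 1 were 6.15% and 5.70%. E2 shifted the large subunit sum by 0.494% in WT and by -2.31% in Het-Met mice, and the small subunit sum by -1.56% and -3.07%. Without that library the shifts in Het-Met mice were positive, at 2.84% for the large and 2.04% for the small subunit. The ratio of large to small subunit sums was 1.88 ± 0.017 (SD) and 1.92 ± 0.035 in WT mice under vehicle and E2 (2 libraries each). It was 1.89 ± 0.0037 and 1.90 ± 0.017 in Het-Met mice (3 each). The E2-treated WT libraries (1.945 and 1.895) lay above the vehicle-treated WT libraries (1.868 and 1.8925), and the Het-Met treatments overlapped. Differences in the ratio between groups were not tested. With Mrps30 and Mrps18a counted as large and Mrps36 left out, the ratio was 2.17 and 2.23 in WT mice under vehicle and E2. It was 2.18 and 2.22 in Het-Met mice, and no spread is given for these ratios. In tissue RNA, fewer cells of a type and less RNA per cell cannot be told apart.

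**Figure D1:**
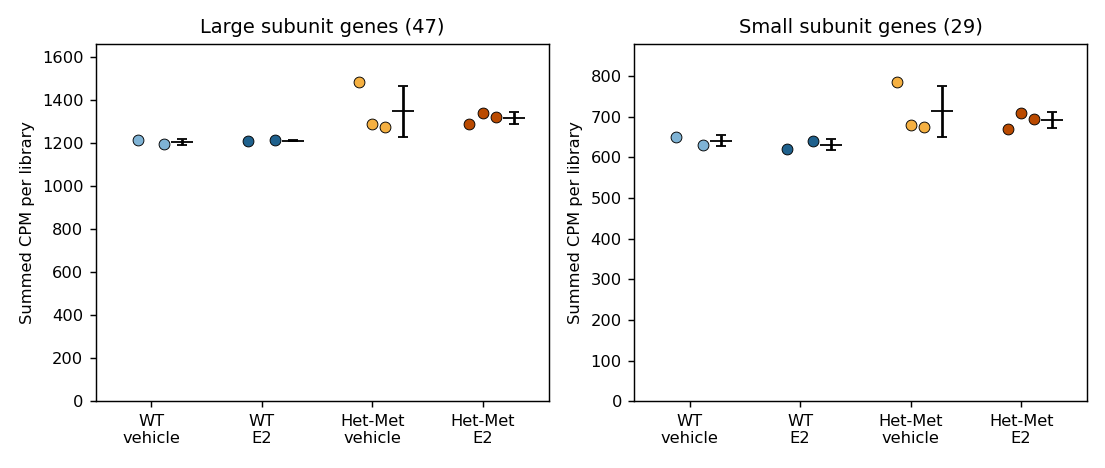
Summed CPM of the 47 large (left) and 29 small (right) subunit genes in each library, with points for libraries and bars for the group mean and SD. All 6 Het-Met points sit above all 4 WT points in both panels, and vehicle-treated Het-Met replicate 1 is the highest point (1481 and 784 CPM).

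Under vehicle, Het-Met mice showed slightly higher levels of nearly all of these genes than WT mice, and 0 passed the test for a change. The call needed a Benjamini-Hochberg adjusted p under 0.05 and a fold change above 1.3, which 0.00663% of all genes tested met (1 gene). The smallest adjusted p among the members was 0.251 (limma). edgeR and DESeq2 on recovered reads also called 0 members. At an unadjusted p under 0.05, limma gave 16 members (10 large, 6 small). All 16 were higher, where 5.85% of all genes tested were higher and 4.83% lower at that level. edgeR gave 13 members and DESeq2 10, also all higher, where 4.86% and 3.23% of all genes tested were. The count was 9, all higher, without vehicle-treated WT replicate 3 (3.76% of all genes tested). Without vehicle-treated Het-Met replicate 1 it was 6, all higher, where 3.45% of all genes tested were higher and 3.4% lower. The log2 fold change was positive for 46 of 47 large and 27 of 29 small subunit genes (55.3% of all genes tested), with medians of 0.15 and 0.16 beside 0.02 over all genes. The 3 exceptions were Mrpl40, Mrps5 and Mrps31. All 3 Het-Met libraries lay above both WT libraries for 33 members (14.8% of all genes tested), and below both for 0 (9.89%). Without vehicle-treated Het-Met replicate 1, 33 members were higher without overlap (18.6%) and Mrps24, Mrps30 and Mrps31 were lower without overlap (15.3%). Leaving out a library cannot lower such counts, so they do not show whether the difference rests on that library. In that setting 63 of 76 had a positive log2 fold change (52.3%), with medians of 0.09 for large and 0.10 for small subunit genes. The 95% interval lay within a 1.3-fold change either way for 39 members (52.6% of all genes tested).

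Mrps21, a small subunit protein, had the smallest p. Its level was 16.9 and 17.8 CPM in vehicle-treated WT, 24.5, 23.1 and 22.1 in vehicle-treated Het-Met, 18.4 and 19.6 in E2-treated WT and 21.1, 19.0 and 19.9 CPM in E2-treated Het-Met libraries. Under vehicle the genotypes did not overlap, whereas under E2 they did. The log2 fold change under vehicle was 0.41 (SE 0.10, limma adjusted p = 0.251), and under E2 it was 0.07 (SE 0.10, adjusted p = 0.792). Mrps14, a protein of the small subunit head, was at 15.9 and 15.2 CPM in vehicle-treated WT and at 23.6, 21.0 and 17.9 CPM in vehicle-treated Het-Met libraries, a log2 fold change of 0.40 (SE 0.11, adjusted p = 0.330). Its E2-treated libraries held 16.4 and 17.6 CPM in WT and 17.4, 17.4 and 18.2 in Het-Met mice, and overlapped. Mrpl22, which lines the exit tunnel for new proteins, was at 8.65 and 7.98 CPM in vehicle-treated WT and at 12.4, 10.2 and 10.4 CPM in vehicle-treated Het-Met libraries. These did not overlap, with a log2 fold change of 0.38 (SE 0.12, adjusted p = 0.357).

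Under E2 the same lean toward Het-Met mice was found, in group means of libraries that the vehicle means did not use. The limma fit took its spread from all 10 libraries, so the p-values of the 2 comparisons are not independent. limma called 0 members (4 of all genes tested, 0.0265%), with a smallest adjusted p of 0.317, and edgeR and DESeq2 called 0. At an unadjusted p under 0.05, limma gave 8 members (6 large, 2 small), all higher, which is 10.5% of the members where 6.29% of all genes tested were higher and 5.36% lower. edgeR gave 5 (6.58% of the members, 5.07% of all genes tested) and DESeq2 2 (2.63% and 3.64%), all higher. Without E2-treated Het-Met replicate 2 the count was 1 (1.32% of the members, 5.64% of all genes tested), and without E2-treated WT replicate 1 it was 2 (2.63% and 3.08%). Without E2-treated WT replicate 2 it was 5 (6.58% and 2.49%). By DESeq2 and in the first 2 of these 3 settings the members' share was thus below that of all genes. The log2 fold change was positive for 40 of 47 large and 27 of 29 small subunit genes (57.3% of all genes tested), with medians of 0.11 and 0.13 beside 0.03 over all genes. The libraries did not overlap for 36 members, all higher (21.1% of all genes tested higher, 14.7% lower). The interval lay within 1.3-fold for 44 members (52.5% of all genes tested). In both treatments the log2 fold change was positive for 64 members (37.5% of all genes tested), and 2, Mrpl11 and Mrpl41, were higher at an unadjusted p under 0.05 in both (0.889%).

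Mrpl41 was at 49.9 and 47.3 CPM in vehicle-treated WT, 47.2 and 46.2 in E2-treated WT, 64.9, 59.3 and 56.8 in vehicle-treated Het-Met and 57.3, 57.5 and 58.5 CPM in E2-treated Het-Met libraries. No Het-Met library overlapped a WT library. The log2 fold change was 0.31 (SE 0.08, limma adjusted p = 0.262) under vehicle and 0.30 (SE 0.08, adjusted p = 0.317) under E2. Mrpl41 lies on the same chromosome as Bdnf, at chr2:24974117-24975098 (GRCm38, minus strand), 84.7 Mb away. Mrps5 and Mrps26 lie nearer to Bdnf, at 17.9 and 20.8 Mb, and had log2 fold changes of -0.01 and 0.14 under vehicle (SE 0.12 and 0.09) and 0.04 and 0.01 under E2. Mrpl11, a protein of the stalk base of the large subunit, was at 37.6 and 38.5 CPM in vehicle-treated WT, 38.2 and 38.0 in E2-treated WT, 51.7, 45.6 and 43.8 in vehicle-treated Het-Met and 43.5, 43.5 and 43.1 CPM in E2-treated Het-Met libraries, and also did not overlap. Its log2 fold changes were 0.30 (SE 0.08, adjusted p = 0.330) and 0.19 (SE 0.08, adjusted p = 0.417). Over both treatments, all 6 Het-Met libraries were above all 4 WT libraries for 9 members (2.63% of all genes tested) and below them for 0 (1.72%). The 9 were Mrpl11, Mrpl14, Mrpl16, Mrpl20, Mrpl28, Mrpl32, Mrpl41, Mrps23 and Mrps25. Without vehicle-treated Het-Met replicate 1, 9 members were above (2.82% of all genes tested) and 0 were below (1.86%). These counts cannot fall when a library is left out, so they are no check on that library.

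**Figure D2:**
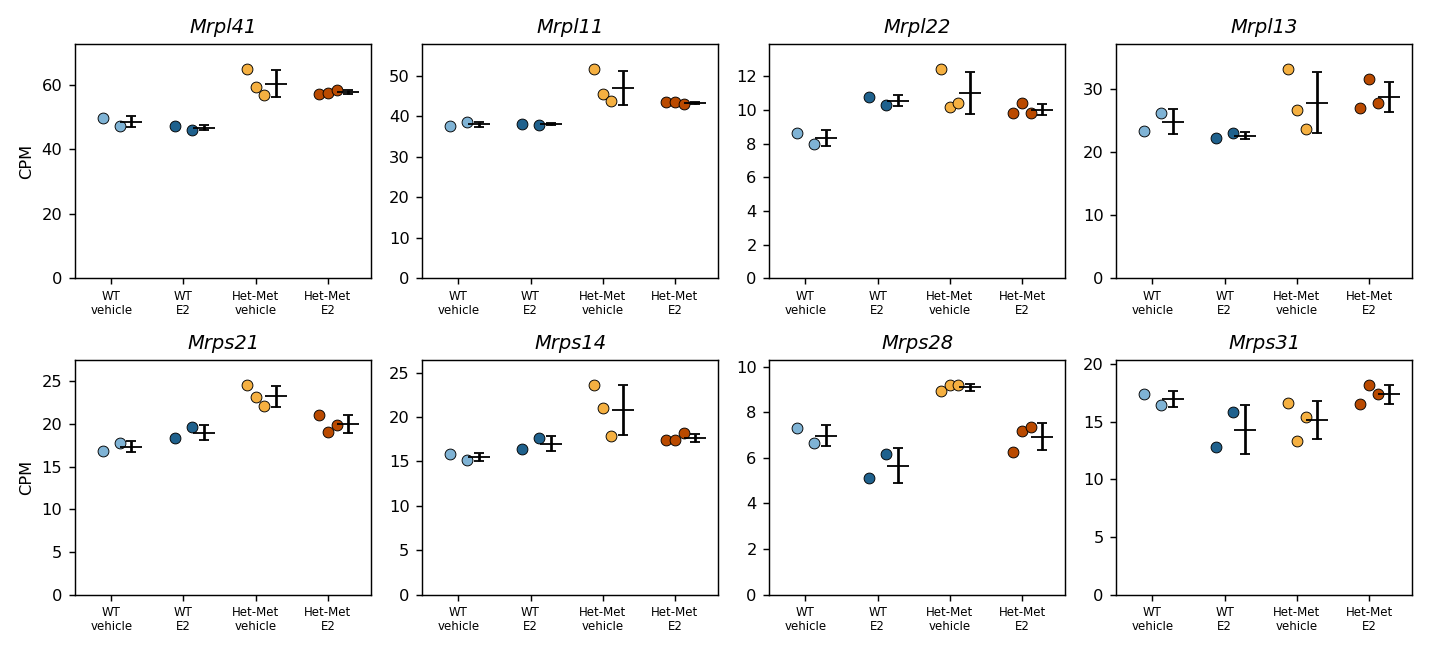
CPM of 8 members in each library, with points for libraries and bars for the group mean and SD. Mrpl41 and Mrpl11 separate the genotypes under both treatments, Mrps21 separates them under vehicle, and Mrps31 overlaps between genotypes under vehicle.

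E2 and vehicle differed little for these genes in either genotype. In WT mice limma, edgeR and DESeq2 called 0 members (0.0133% of all genes tested were called by limma), with 2, 2 and 0 at an unadjusted p under 0.05 (4.23% of all genes tested by edgeR and 3.03% by DESeq2, either direction). Without E2-treated WT replicate 1 limma gave 0 (2.11%). Mrpl22 was higher (2.37% of all genes tested) and Mrps9 lower (1.66%). Mrpl22 stood at 10.8 and 10.3 CPM in E2-treated WT libraries, above the vehicle-treated WT values given earlier, a log2 fold change of 0.33 (SE 0.13, limma adjusted p = 1.00). Mrps9, a small subunit protein, was at 33.2 and 33.0 CPM under vehicle and 28.1 and 29.0 CPM under E2 in WT mice, a log2 fold change of -0.21 (SE 0.09). Median log2 fold changes were -0.01 for large and 0.01 for small subunit genes, and 36 of 76 were positive (49% of all genes tested). The treatments did not overlap for 10 members that were higher (15.6% of all genes tested) and 12 that were lower (16.2%). The interval lay within 1.3-fold for 54 members (54% of all genes tested).

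In Het-Met mice 0 members were called by limma, edgeR or DESeq2 (limma called 0% of all genes tested), with 4, 4 and 3 at an unadjusted p under 0.05 (5.56% of all genes tested by edgeR and 4.06% by DESeq2, either direction). Without E2-treated Het-Met replicate 3 limma gave 1 (4.11%). The 4 by limma in all libraries were small subunit genes, all lower (2.63% of all genes tested): Mrps14, Mrps21, Mrps26 and Mrps28. Without vehicle-treated Het-Met replicate 1, 2 members were higher and 1 lower at that level (3.95% of the members, 6.62% of all genes tested, either direction). The count was then no longer all lower. Mrps28 was at 8.92, 9.18 and 9.18 CPM under vehicle and 6.26, 7.19 and 7.35 CPM under E2. The treatments did not overlap, with a log2 fold change of -0.37 (SE 0.12, limma adjusted p = 0.753). In WT mice it was at 7.31 and 6.64 CPM under vehicle and 5.11 and 6.19 CPM under E2, again without overlap. The medians were -0.03 for large and -0.04 for small subunit genes, and 26 of 76 were positive (51.8% of all genes tested). The treatments did not overlap for 0 members that were higher (5.15% of all genes tested) and 6 that were lower (5.11%). Without vehicle-treated Het-Met replicate 1 the medians were 0.05 for large and 0.04 for small subunit genes. The interval lay within 1.3-fold for 65 members (65.5% of all genes tested).

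The effect of E2 was tested for a difference between genotypes, and 0 members were called by limma, edgeR or DESeq2 (0.0729% of all genes tested by limma), with 4, 4 and 3 at an unadjusted p under 0.05 (5.72% of all genes tested by edgeR and 4.28% by DESeq2, either direction). Without E2-treated WT replicate 1 limma gave 1 (3.67%). Mrpl22 (log2 -0.45, SE 0.17), Mrps14 (-0.35, SE 0.16) and Mrps21 (-0.34, SE 0.14) were lower, at a level that 2.62% of all genes tested reached. Mrps31, a small subunit protein, was higher (0.44, SE 0.17, where 2.8% of all genes tested were). With each of the 10 libraries left out in turn, the Mrps31 value ranged from 0.29 (without E2-treated WT replicate 1) to 0.59 (without E2-treated WT replicate 2) and kept an unadjusted p under 0.05 in 7 settings. It lost it without vehicle-treated WT replicate 1, E2-treated WT replicate 1 or vehicle-treated Het-Met replicate 2. Mrpl22 kept it in 8 settings, Mrps21 in 7 and Mrps14 in 1, without vehicle-treated Het-Met replicate 3. Mrps31 was at 17.4 and 16.5 CPM in vehicle-treated WT, 12.8 and 15.8 in E2-treated WT, 16.6, 13.4 and 15.4 in vehicle-treated Het-Met and 16.5, 18.2 and 17.4 CPM in E2-treated Het-Met libraries. The interaction was positive for 28 of 76 members (51.4% of all genes tested), and its interval lay within 1.3-fold for 24 (33.4%). Its medians were -0.04 for large and -0.02 for small subunit genes, and they turned to 0.04 and 0.07 without vehicle-treated Het-Met replicate 1. For Mrps31, the WT libraries under E2 lay below those under vehicle, and the Het-Met libraries overlapped. These comparisons share libraries with the genotype comparisons above.

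**Figure D3:**
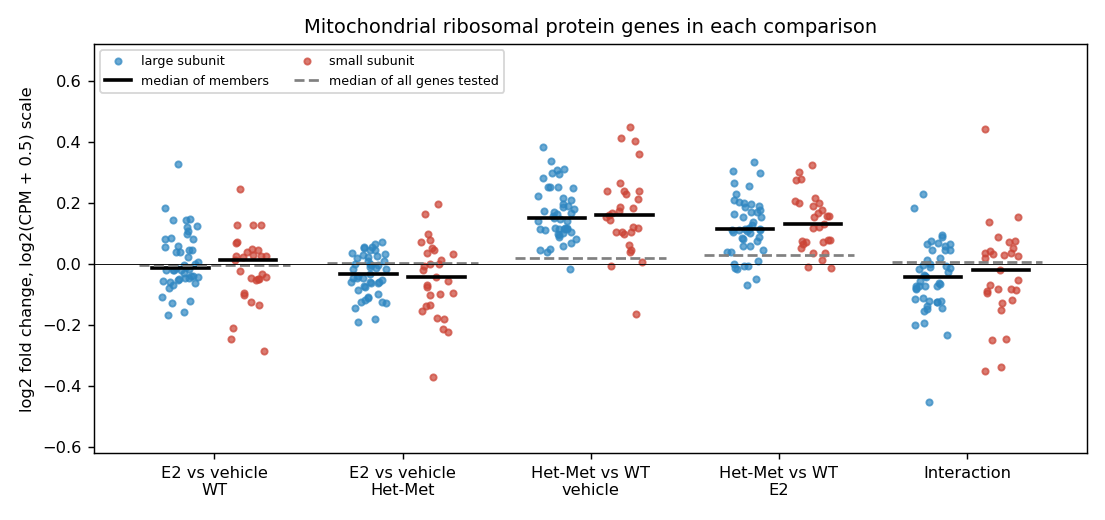
Log2 fold change on the log2(CPM + 0.5) scale of each of the 76 genes in the 5 comparisons, with points for genes, black lines for the median of each subunit and dashed lines for the median of all genes tested. Nearly all points are above 0 in both Het-Met against WT comparisons (73 and 67 of 76), and the points straddle 0 for E2 and the interaction.

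Short genes leaned the same way across the genome. The median exon length was 2213.5 bases for the members and 4434 for all genes tested. Each library had a slope of log2 expression, relative to the mean library, per doubling of exon length. The slopes were 0.0134 and 0.0435 in vehicle-treated WT, 0.0373 and 0.0330 in E2-treated WT, -0.0761, -0.0059 and -0.0142 in vehicle-treated Het-Met and 0.0048, -0.0190 and -0.0168 in E2-treated Het-Met libraries. All 4 WT slopes were above all 6 Het-Met slopes, so the slope and genotype moved together. Under vehicle the median log2 fold change of all genes was 0.15 for exon lengths under 1000 bases and -0.08 for lengths of 8000 bases or more. For members it was 0.25 (9 genes) and 0.26 (4 genes) in those bins. Between 4000 and 8000 bases it was 0.00 for all genes and 0.11 for 17 members. Under E2 the same middle bin gave 0.02 and 0.11. With the length trend removed, the median over the members was 0.07 under vehicle and 0.05 under E2, with 60 of 76 (49.8% of all genes tested) and 50 of 76 (50.1%) positive. At an unadjusted p under 0.05, 9 members were then higher under vehicle (3.22% of all genes tested) and 3 under E2 (4.02%), and 0 were lower in either (4.05% and 5.89%). Over all 10 libraries, Mrpl41 then had log2 fold changes of 0.14 under vehicle and 0.17 under E2. Under vehicle Mrps21 was then at 0.24, Mrps14 at 0.35, Mrpl11 at 0.24 and Mrpl22 at 0.22, and Mrpl22 no longer passed the unadjusted level (limma). Under E2 Mrpl11 was at 0.13 and no longer passed it either. Without vehicle-treated Het-Met replicate 1 as well, the median under vehicle was 0.038, with 53 of 76 positive (49.9%), 7 higher (2.44%) and 0 lower (3.02%). What part the length slope has in the genotype difference was not tested.

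**Figure D4:**
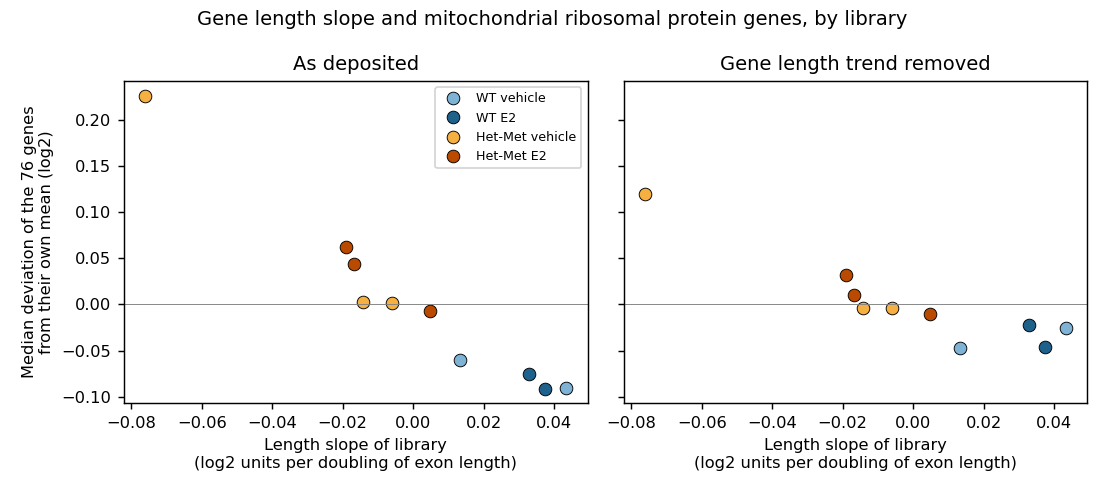
Length slope of each library (log2 units per doubling of exon length) against the median deviation of the 76 genes from their own mean over libraries (log2), as deposited (left) and with the length trend removed (right). The points share the same libraries on both axes; vehicle-treated Het-Met replicate 1 is far left and highest, at 0.23 as deposited and 0.12 after removal.

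**Figure D5:**
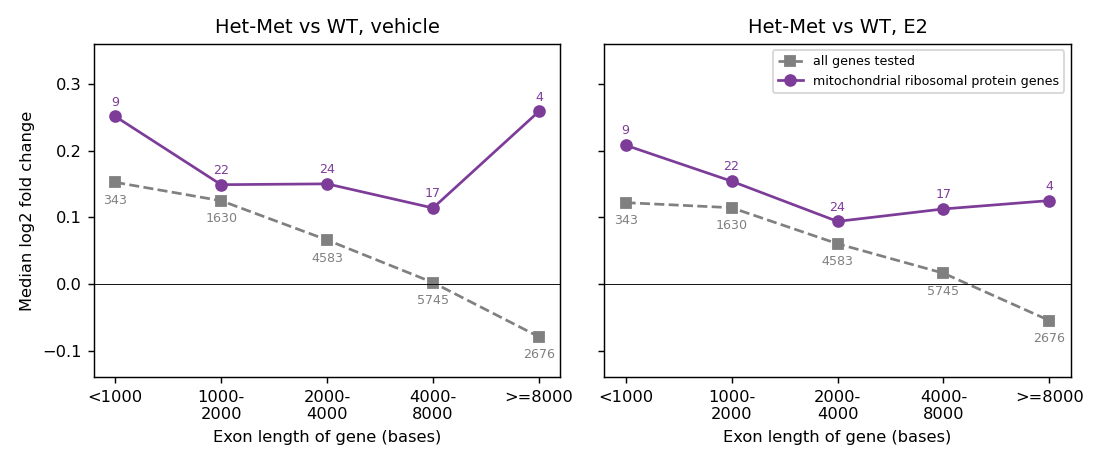
Median log2 fold change of Het-Met against WT by exon length under vehicle (left) and E2 (right) for all genes tested (squares) and the members (circles), with the number of genes beside each point. The line for all genes falls from 0.15 to -0.08 under vehicle, and every member point is above it.

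Other genes of protein synthesis and respiration were read from the same test, without a test of the lists. At an unadjusted p under 0.05, 5.85% of all genes tested were higher and 4.83% lower under vehicle, and 6.29% and 5.36% under E2. Of 70 cytosolic ribosomal protein genes, 17 were higher and 0 lower under vehicle, and 19 higher and 1 lower under E2, with a median of 0.20 in both. Their counts are uncertain where near-identical copies share reads. Of 76 nuclear genes of the respiratory chain, 27 were higher and 1 lower under vehicle and 22 higher and 0 lower under E2, with medians of 0.18 and 0.17. With the length trend removed, the medians were 0.09 and 0.11 for the cytosolic list and 0.06 and 0.06 for the respiratory list. The cytosolic list then had 2 higher and 0 lower under vehicle and 8 higher and 1 lower under E2, and the respiratory list 6 and 5 higher and 0 lower in either. All genes tested then gave 3.22% higher and 4.05% lower under vehicle, and 4.02% and 5.89% under E2. As deposited but without vehicle-treated Het-Met replicate 1, 4 cytosolic genes were higher and 1 lower under vehicle, with a median of 0.14, and 11 respiratory genes were higher and 1 lower, with a median of 0.09. Without that library and with the length trend removed, 2 cytosolic genes were higher and 1 lower, with a median of 0.079. In the same setting 2 respiratory genes were higher and 0 lower, with a median of 0.016 (2.44% of all genes tested were higher and 3.02% lower). Among factors that act on the mitochondrial ribosome, 25 assembly factors had medians of 0.05 under vehicle and 0.06 under E2 (0.05 and 0.01 with the length trend removed). Their log2 fold change was positive for 21 under vehicle and 18 under E2. At an unadjusted p under 0.05, 4 were higher and 0 lower under vehicle, and 0 were higher or lower under E2. Under vehicle 3 were higher with the length trend removed, and 2 without vehicle-treated Het-Met replicate 1. The 15 translation factors had medians of 0.00 and 0.08 (-0.02 and 0.05 with the trend removed), and 20 mitochondrial tRNA synthetases and amidotransferase subunits 0.06 and 0.04 (0.02 in both with the trend removed). The 10 genes of mitochondrial DNA upkeep and transcription had a median of 0.09 in both (0.03 and 0.04 with the trend removed). Without vehicle-treated Het-Met replicate 1, the medians under vehicle were 0.04 for assembly factors, -0.045 for translation factors, -0.0047 for tRNA synthetases, 0.0078 for mitochondrial DNA upkeep and -0.0089 for the regulators described next. Differences between these lists were not tested. The 8 regulators, among them Ppargc1a, Nrf1 and Gabpa, had medians of 0.01 and 0.00. At an unadjusted p under 0.05, 0 of the 8 were higher in either comparison and 1 was lower under E2, the coactivator gene Ppargc1b (log2 fold change -0.58, SE 0.19, limma adjusted p = 0.342), named after its value was seen. The 6 subunits with other symbols, such as Dap3, had medians of 0.18 and 0.05 (0.09 and 0.03 with the trend removed), and 0.11 under vehicle without vehicle-treated Het-Met replicate 1. Genes of the mitochondrial genome summed to 0 CPM in every library under the symbols searched, so they could not be analysed here.

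Choroid plexus markers varied widely between libraries. All 11 were tested, with Ttr, the transthyretin gene, the most abundant at a mean of 1300.1 CPM. Their summed level was 352 and 1595 CPM in vehicle-treated WT, 3601 and 2697 in E2-treated WT, 4076, 2107 and 2710 in vehicle-treated Het-Met and 2245, 781 and 518 CPM in E2-treated Het-Met libraries. Their median log2 fold change in Het-Met against WT mice was 1.65 under vehicle and -1.56 under E2, whereas the members' medians were positive in both. The neuron list averaged 11886 and 11938 CPM in WT mice (vehicle, then E2) and 11775 and 11694 CPM in Het-Met mice. The 6 microglia markers had a mean sum of 295 and 281 CPM in WT mice and 304 and 304 CPM in Het-Met mice. Their median log2 fold change in Het-Met against WT mice was 0.08 under vehicle, where 4 of 6 were positive and the lowest was -0.13, and 0.11 under E2, where 6 of 6 were positive. The medians were 0.0069 and 0.04 with the length trend removed. Aif1, the marker with the smallest p and the largest change of the 6, had log2 fold changes of 0.50 and 0.40 (limma adjusted p = 0.378 and 0.407). The 6 hippocampus markers had medians of -0.09 under vehicle, where 5 of 6 were negative, and -0.13 under E2, where 3 of 6 were, with the lowest at -0.69 and -0.91. At an unadjusted p under 0.05, 1 was higher and 1 lower under vehicle, and 0 were higher and 2 lower under E2. The 4 meninges markers had medians of 0.22 and -0.01, with 3 and 2 of 4 positive. The 4 thalamus markers had medians of 0.10 under vehicle and 0.41 under E2, where 4 of 4 were positive. Of these, 1 was higher and 0 lower at an unadjusted p under 0.05 under vehicle, and 3 were higher and 0 lower under E2. The part of these lists in the members' difference was not tested. Of 5 blood genes, 4 were listed at 0 in all libraries.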

How the data were processed

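TopHat2 was used by the authors to place trimmed 75-bp reads on mm10, and the deposited values are CPM per gene symbol, which sum to 1000000 per library. In each library 100% of values were whole multiples of the value of 1 read (tolerance 0.01), which gave the reads used by edgeR 4.0.16 and DESeq2 1.42.0. These called 2, 0, 1, 14 and 13 (edgeR) and 14, 6, 34, 29 and 37 genes (DESeq2) for E2 in WT, E2 in Het-Met, genotype under vehicle, genotype under E2 and the interaction.

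The main test was limma 3.58.1 in R 4.3.3 on log2(CPM + 0.5) over the means of 4 groups and all 10 libraries, two-sided, for genes that averaged 0.5 CPM or more, with Benjamini-Hochberg adjustment over all 15081 genes. Fold changes on this scale understate those of low genes. Exon lengths came from GENCODE vM21 (GRCm38, that is mm10): 23384 of 24421 symbols had a direct match, 651 matched through older names and 386 had none. The length trend was removed per library by lowess (span 0.3). Members and lists were chosen with earlier results of these data known. Named members were, per comparison, those with the smallest p in each direction and subunit, the highest and lowest levels and spreads, the Mrps18 paralogs, Mrps30 and Mrps36. Other members were named after their values were seen. Replicates were separate pools of animals and differed by more than sampling noise (chi-square per degree of freedom 3.29 to 13.5). Counting intervals would cover counting error only.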

Additional observations from a re-analysis of the deposited data

Results flagged for a closer look

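Fibcd1, one of the 6 hippocampus markers, had an effect of E2 that differed between the 2 genotypes by the test of the difference itself, with a higher mean under E2 in WT and a lower one in Het-Met mice. Its interaction was -0.69 on the log2 scale (SE 0.10, limma adjusted p = 0.0333). Within a genotype the effect of E2 did not pass: the log2 fold change was 0.28 in WT (SE 0.08, adjusted p = 0.536) and -0.41 in Het-Met mice (SE 0.06, adjusted p = 0.159). Its mean level was 170 ± 5.64 CPM (SD, 2 libraries) in vehicle-treated WT, 208 ± 8.25 (2 libraries) in E2-treated WT, 211 ± 11.1 (3 libraries) in vehicle-treated Het-Met and 159 ± 9.45 CPM (3 libraries) in E2-treated Het-Met mice. Over the 6 hippocampus markers the interaction had a median of 0.0092, with 3 positive and 3 negative. The 11 choroid plexus markers had an interaction median of -3.32, with 11 of 11 negative, and their part in the result for Fibcd1 was not tested.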

How the results depend on the processing

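The alternatives were pseudocounts of 0.1 and 1, no filter on low values or one at 2 CPM, quantile normalization, length trend removal, scaling by median ratios, a replicate block, edgeR, DESeq2 and each library left out. The 0 calls among members held in all of them. Subunit medians of Het-Met against WT stayed positive in all 21 settings: large 0.07 to 0.19 and small 0.06 to 0.20 under vehicle, large 0.05 to 0.14 and small 0.05 to 0.16 under E2. With the length trend removed, the small subunit medians were 0.064 and 0.047. The median of all members under vehicle was then 0.038 without vehicle-treated Het-Met replicate 1, an alternative chosen after seeing the data. Counts of members at an unadjusted p under 0.05 moved as follows, with the share of all genes tested in either direction in brackets: under vehicle 9 with the length trend removed (7.27%) and 10 by DESeq2 (8.45%), under E2 3 with quantile normalization (11.2%), 3 with the length trend removed (9.91%), 5 by edgeR (11.6%) and 2 by DESeq2 (9.19%), and for E2 in WT 0 by DESeq2 (3.03%). The ratio of large to small sums was 2.17, 2.23, 2.18 and 2.22 with subunits by structure and Mrps36 left out, and 1.27, 1.29, 1.27 and 1.28 from mean log2 values (vehicle-treated and E2-treated WT, then Het-Met). The cause was not tested.

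With each library left out in turn, counts at an unadjusted p ranged from 6 (without vehicle-treated Het-Met replicate 1) to 20 (without vehicle-treated Het-Met replicate 3) for genotype under vehicle, where 6.85% and 12% of all genes tested were at that p in those settings. They ranged from 1 (without E2-treated Het-Met replicate 2) to 12 (without vehicle-treated Het-Met replicate 1) under E2 (10% and 14% of all genes tested) and from 0 (without E2-treated WT replicate 1) to 3 (without vehicle-treated WT replicate 1) for E2 in WT (2.11% and 3.13%). They ranged from 1 (without E2-treated Het-Met replicate 3) to 5 (without vehicle-treated WT replicate 1) for E2 in Het-Met (4.11% and 5.98%), and from 1 (without E2-treated WT replicate 1) to 4 (without vehicle-treated Het-Met replicate 3) for the interaction (3.67% and 5.7%). Medians of large and small genes ranged from 0.09 to 0.19 and 0.10 to 0.20 under vehicle, 0.11 to 0.14 and 0.11 to 0.14 under E2, -0.01 to 0.01 and -0.03 to 0.01 for E2 in WT, -0.063 to 0.052 and -0.099 to 0.044 for E2 in Het-Met, and -0.093 to 0.042 and -0.079 to 0.070 for the interaction. Named members gave 763 of 780 alternative values in the same direction, and 17 were reversed. They were picked by their p in these data, and the settings share most or all libraries. Agreement in direction was therefore likely in advance. No change of any member had passed the test, whether its direction was kept or reversed. Leaving out vehicle-treated Het-Met replicate 3 gave Mrpl50 -0.020 and Mrpl54 -0.032 (E2 in Het-Met; highest 0.14 and 0.19 without replicate 1). Over libraries left out, values ranged from -0.13 to 0.10 for Mrpl40 and -0.10 to 0.089 for Mrps5 (genotype under vehicle), and from -0.11 to 0.090 for Mrps10 and -0.085 to 0.062 for Mrps22 (genotype under E2). Removing the length trend gave Mrps5 0.012 and Mrps10 0.010.

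Replicate numbers showed no clear pairing: same-numbered libraries had correlations of deviations between -0.172 and 0.0826. With 2 or 3 libraries per group, these values cannot settle whether same-numbered libraries were handled together. With the replicate block the count was 0 for E2 in WT (3.59% of all genes tested), 2 for E2 in Het-Met (4.99%) and 2 for the interaction (4.48%), and reversed values were Mrpl40 0.016, Mrps5 0.0081, Mrps10 0.011 and Mrps22 0.039.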
